A study of Homo sapiens with 24 samples.

Results

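The replication-dependent histone genes of human cells were examined across 24 3′-end RNA libraries. They were the 85 of 58138 gene names in the count tables that begin with HIST1H to HIST4H and go on with the class (H1, H2A, H2B, H3 or H4), leaving out names that end in P or in P and digits. GENCODE release 29 lists 71 of the 85 as protein-coding and 14 as pseudogenes. Of the 85 names, 11 carry PS, among them HIST2H3PS2, which is listed as protein-coding. All libraries came from derivatives of human embryonic kidney 293 cells, and the rule used names alone.

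In HEK293T cells, 8 groups of 2 samples had received siRNA for 48 h: a control (CTRL), single knockdowns (RPRD1A_KD, RPRD1B_KD, RPRD2_KD), combined knockdowns (RPRD1A_RPRD1A_KD, RPRD1A_RPRD2_KD, RPRD1B_RPRD2_KD) and the triple knockdown (RPRD1A_RPRD1B_RPRD2_KD). The other 4 groups of 2 were Flp-In T-REx 293 cells, a line built for tetracycline-inducible transgenes: 2 untreated groups, labelled FLP and RPRD1B_FL, and their counterparts kept in tetracycline for 48 h, labelled FLP_TET and RPRD1B_FL_TET. RPRD1A, RPRD1B and RPRD2 bind the carboxy-terminal domain of RNA polymerase II. The labels do not explain FL, do not say whether the cells of a group were clonal, and do not say that the 2 samples of a group were separate cultures, so p-values measure only the spread between these samples. RNA was extracted from whole cultures, where fewer cells in a state and less RNA per cell cannot be told apart.

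Replication-dependent histone mRNAs supply the core histones H2A, H2B, H3 and H4 and the linker histone H1 that package newly made DNA in S phase. Unlike other mRNAs, most end in a conserved stem-loop instead of a poly(A) tail: the stem-loop binding protein SLBP holds the loop, and the U7 small nuclear RNP directs cleavage just after it. Some of these genes also have poly(A) signals further downstream and can make polyadenylated transcripts. The libraries were made with a QuantSeq REV kit, which primes on poly(A) and reads from the 3′ end, so most mature histone mRNAs lack the tail that it needs.

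The stem-loop was visible in the GENCODE release 29 transcripts (GRCh38). It was searched as a word of 16 bases, 6 bases of stem, 4 of loop and 6 of stem, within 150 bases after the stop codon, allowing 3 mismatches from the most frequent such word, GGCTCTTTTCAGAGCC. Of the 36 members with an annotated stop codon and at least 16 annotated bases after it, 32 held it, against 43 of 19048 other genes (0.226%). The word of the H2A gene HIST3H2A and the H4 form of it, shared by 5 members, are shown with their flanks, the stem-loop in capitals.
HIST3H2A, chr1:228457362-228457391, minus strand: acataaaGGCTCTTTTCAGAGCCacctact
HIST1H4J, chr6:27824452-27824480, plus strand: aataaaaGGCCCTTTTCAGGGCCacccta
HIST1H4H, chr6:26285124-26285153, minus strand: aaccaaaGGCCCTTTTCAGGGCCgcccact

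The ends of the annotated transcripts differed more. A poly(A) signal, searched on the transcript strand as AATAAA or ATTAAA in the last 50 bases, was found in 25 of 85 members (29.4%), against 46.7% of 54835 other gene names with a transcript, coding or not. Among genes with a stop codon and at least 16 annotated bases after it, 23 of 36 members held it (63.9%), against 86.5% of 19048 others. The signals of 5 of the most abundant members that have one are shown in capitals.
HIST3H2A, chr1:228456979-228457008, minus strand: tctgatATTAAAagtatttatgatctctaa
HIST1H2BJ, chr6:27125897-27125926, minus strand: gaataaatgAATAAAgtaatattcctctgc
HIST2H2BE, chr1:149884459-149884488, minus strand: gttattAATAAAgttaccaattaatttaaa
HIST1H2BD, chr6:26171320-26171349, plus strand: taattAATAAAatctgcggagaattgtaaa
HIST1H3H, chr6:27811271-27811300, plus strand: atgactaAATAAAatctgtataatccccac
HIST1H4C, an H4 gene, was the most abundant member and had neither feature in its annotated transcript, which runs from chr6:26103876-26104310 on the plus strand and ends 51 bases after the stop codon. Its last bases are shown with the 20-base window of most adenines, 18 of 20, in capitals.
HIST1H4C, chr6:26104281-26104310, plus strand: tgagaacttcAAAAAACAAAAACAAAAAAA
A window with 18 or more adenines of 20 in the last 50 bases was found in 1.49% of other gene names. HIST1H2BG, the other member with 15 or more, ends in 30 adenines and had 15 counts over all 24 libraries. A letter match is a description: whether the reads of HIST1H4C began at this stretch was not tested.

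Total counts in genes ran from 1817246 to 3135625 in the HEK293T libraries and from 2342969 to 3531106 in the Flp-In libraries, so that 3 counts amounted to 0.85 to 1.65 CPM (counts scaled to a common library size, edgeR's unit). The targeted genes were below CTRL in the groups named for them. RPRD1A was at 157 ± 6.5 CPM in CTRL and 19.7 ± 4.6 in RPRD1A_KD (mean ± SD, n = 2), and it was also below CTRL in groups not named for it, at 92.0 ± 11.7 in RPRD1B_KD, 84.9 ± 17.4 in RPRD2_KD and 75.5 ± 10.6 in RPRD1B_RPRD2_KD. RPRD2 was at 98.1 ± 2.3 CPM in CTRL, 32.0 ± 2.3 in RPRD2_KD and 59.9 ± 11.7 in the triple knockdown. In the group labelled RPRD1A_RPRD1A_KD both RPRD1A (20.4 ± 8.7) and RPRD1B (10.8 ± 4.2, against 27.7 ± 0.20 in CTRL) were low. RPRD1B was at 78.5 ± 15.5 CPM in RPRD1B_FL_TET and 30.7 ± 0.28 in FLP_TET. The second RPRD1A_RPRD2_KD library stood apart, with a Spearman correlation of 0.45 across 8615 genes between its deviation from the other HEK293T libraries and transcript GC content, against -0.24 to 0.12 in the other 15. In the Flp-In libraries the same measure ran from -0.55 to 0.61. Blood, gut, endothelial and hepatocyte markers (PTPRC, CDH17, PECAM1, CDH5, ALB) stayed under 1 CPM in every library. Of the fibroblast markers, COL1A1 was at 3.70 to 14.2 CPM in HEK293T and 1.15 to 5.34 in Flp-In, and COL3A1 reached 4.37 CPM.

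Most of the 85 histone genes had few counts or none. No count was recorded for 36 of them in any of the 24 libraries. For the 28 of these that share no end with another member, that allows up to 0.0488 CPM each over all libraries, counting error only. This limit holds only for reads inside the annotated gene that were assigned to it alone. Reads ambiguous between genes and reads without a unique position were counted for no gene. The annotated spans of HIST1H3J and HIST1H2AM, both at 0 counts, overlap on the minus strand. Reads past an annotated gene end belong to no gene name, so transcripts that end further on are not bounded. In alphabetical order the 36 begin with HIST1H1B, HIST1H1PS1, HIST1H1T, HIST1H2AA, HIST1H2AD and HIST1H2AJ, and 24 of the 36 are protein-coding. Another 32 had 1 to 100 counts in total, and 17 had more than 100. Of the 32, 24 had at most 20 counts over all libraries, from 20 for HIST1H2AE to 1 for HIST1H2AK.

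The 4 pairs of HIST2 genes with the same last 50 bases (HIST2H2AA3 and HIST2H2AA4, HIST2H2BA and HIST2H2BB, HIST2H3A and HIST2H3C, HIST2H4A and HIST2H4B) were all at 0 counts. Reads with no unique position made up 9.56% to 14.6% of all reads in the tables and belong to no gene, so a 0 for these 8 members does not measure their level. By class, counts were recorded for 4 of 7 H1, 11 of 22 H2A, 16 of 25 H2B, 9 of 16 H3 and 9 of 15 H4 members. By the cluster in the name, they were recorded for 40 of 65 HIST1, 6 of 15 HIST2 and 2 of 4 HIST3 members and the single HIST4 member. Of the 14 pseudogenes, HIST2H2BC had 160 counts and HIST1H3PS1 had 3.

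A member was taken as seen in a line when every library of that line held at least 3 counts. In HEK293T, 10 members were seen: HIST1H4C, HIST1H1C, HIST3H2A, HIST1H2BN, HIST1H2BJ, HIST1H1E, HIST1H1D, HIST1H4J, HIST1H3E and the pseudogene HIST2H2BC. In Flp-In T-REx 293, 16 were seen, 9 of them also in HEK293T. Just inside the rule, HIST1H2AG was seen in all 8 Flp-In libraries at 1.14 to 4.02 CPM, and just outside it HIST1H4H reached 3 counts in 7 of the 8, at 0.732 to 5.35 CPM.

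**Figure D1:**
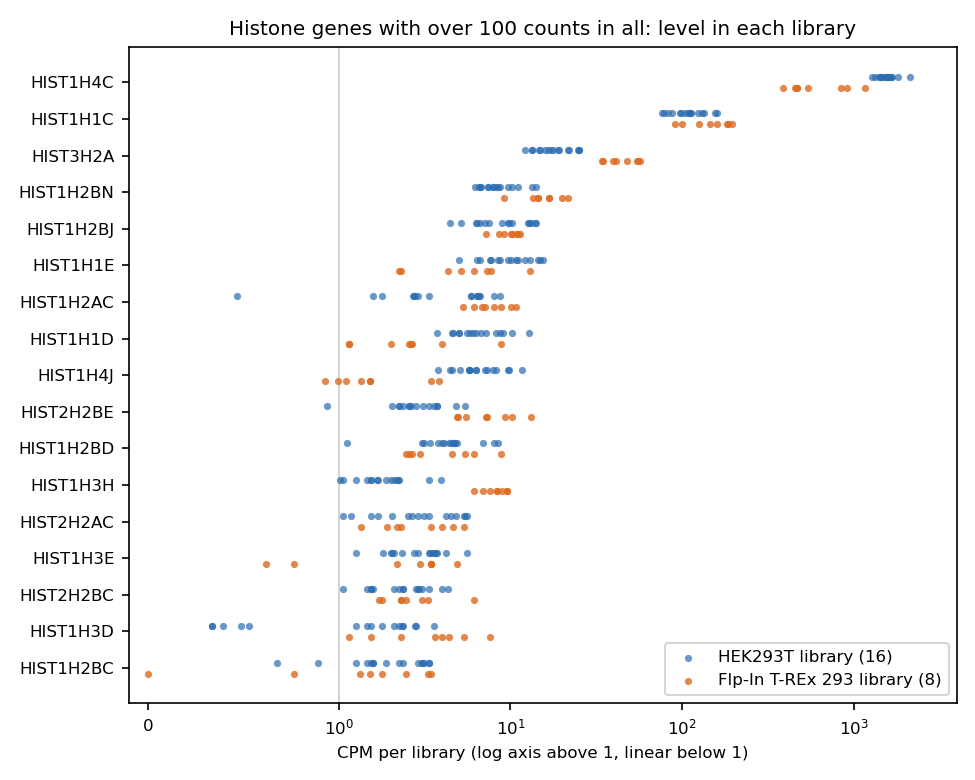
Level in CPM (horizontal axis, logarithmic above 1 and linear below) in each library for the 17 histone genes with more than 100 counts in total, ordered by mean level. Blue points are the 16 HEK293T libraries and orange points the 8 Flp-In T-REx 293 libraries. HIST1H4C stands about an order of magnitude above HIST1H1C in HEK293T, and the 2 lines do not overlap for HIST1H4C, HIST3H2A and HIST1H3H.

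Among the members that were present, 1 gene held most of the signal. HIST1H4C took 75221 of 89717 member counts (83.8%), and HIST1H4C with the linker histone gene HIST1H1C took 92.4%. By line, the share of HIST1H4C was 88.3% in HEK293T and 69.4% in Flp-In. Its mean level was 1262 CPM, with 50 to 71 genes above it in a HEK293T library and 116 to 382 in a Flp-In library. HIST1H1C followed at 123 CPM and HIST3H2A at 27.4 CPM. CPM in a 3′-end library counts transcripts by their ends and is not divided by transcript length.

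Below these 3 the order differed between the lines. In HEK293T the next by mean level were HIST1H1E (10.2 CPM), HIST1H2BJ (9.29), HIST1H2BN (8.80), HIST1H1D (6.87), HIST1H4J (6.85), HIST1H2BD (4.61) and HIST1H2AC (4.56). In Flp-In they were HIST1H2BN (15.9 CPM), HIST1H2BJ (9.81), HIST1H3H (8.19), HIST1H2AC (7.88), HIST2H2BE (7.83), HIST1H1E (6.02) and HIST1H2BD (4.46). Neighbours lay within each other's spread: HIST1H2BN ran from 6.19 to 14.03 CPM and HIST1H2BJ from 4.45 to 14.03 CPM over the HEK293T libraries. HIST1H4C, HIST1H1C and HIST3H2A did not overlap with one another in any line. The order by class sum in HEK293T was H4 (median 1572 CPM), H1 (128), H2B (33.1), H2A (29.3) and H3 (7.48). In Flp-In it was H4 (509), H1 (160), H2A (60.5), H2B (46.1) and H3 (14.3).

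The annotated end went with the level only in part. Of the 25 members with a poly(A) signal in the last 50 bases, 11 had over 100 counts and 7 had none. Of the 60 without one, 6 had over 100 counts and 29 had none. The 7 all share their last 50 bases with another member, so their 0 does not measure their level. The same holds for HIST2H2BA among the 29. With these members taken at 0, median mean levels were 1.23 CPM with a signal and 0.0144 CPM without. The members within each set differ in annotation as well. The place of the signal relative to the stem-loop was not part of the search. In HIST1H4J, 1 of the 11, the signal starts at base 16 after the stop codon, before the stem-loop at base 23. The 6 abundant members without a signal were HIST1H4C, HIST1H1C, HIST1H1E, HIST1H1D, HIST2H2AC and HIST1H3D. For HIST1H1C, HIST1H1D, HIST2H2AC and HIST1H3D the annotation stops at the stop codon, as it does for 35 of the 71 members with an annotated stop codon, so nothing can be read about the bases that follow.

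**Figure D2:**
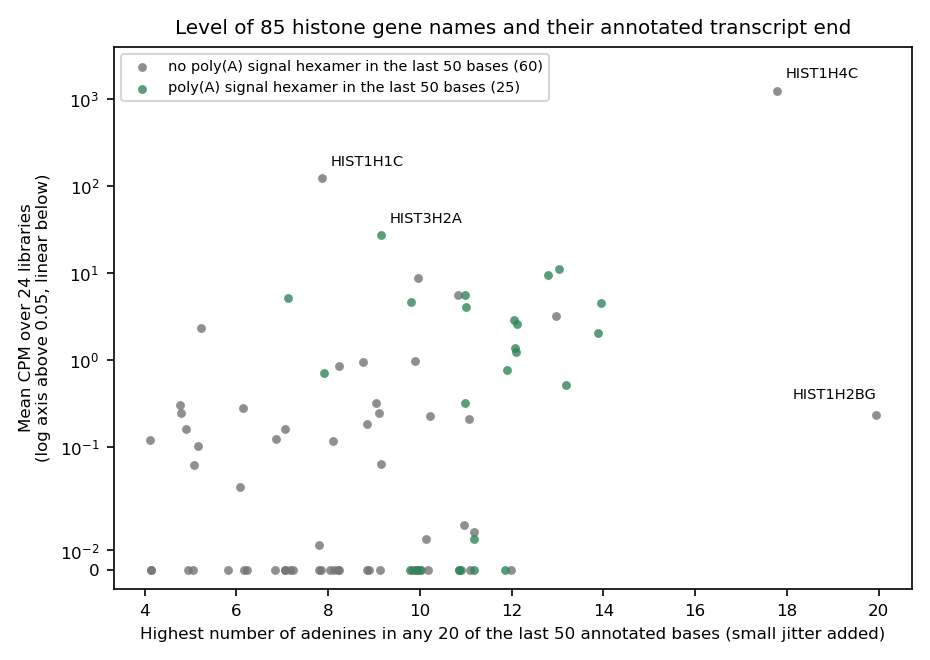
Mean CPM over 24 libraries (vertical axis, logarithmic above 0.05) of all 85 histone gene names against the highest number of adenines in any 20 of the last 50 annotated transcript bases. Green points have a poly(A) signal hexamer in those bases (25 members) and grey points do not (60). HIST1H4C, with 18 adenines, is the highest point, and HIST1H2BG, with 20, had a mean of 0.231 CPM.

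Silencing the RPRD genes was compared with CTRL in a fit of all 16 HEK293T libraries by edgeR's quasi-likelihood test. Of the 85 members, 13 passed the filter on low counts. None of the 13 was called at an adjusted p under 0.05 in any of the 7 knockdown groups or in their mean. Over all 11834 genes tested the share called was as small: 0.00845% in RPRD1A_KD, RPRD1B_KD, RPRD2_KD and RPRD1A_RPRD2_KD, and 0.0169% in RPRD1A_RPRD1A_KD, RPRD1B_RPRD2_KD, RPRD1A_RPRD1B_RPRD2_KD and the mean of the 7. DESeq2 also called 0 members in each. At an unadjusted p under 0.05, 3 of 13 members passed in RPRD1A_RPRD1A_KD and in the triple knockdown (3.99% of all genes in each). None passed in RPRD1A_RPRD2_KD (7.07% of all genes). In each other comparison 1 passed, against 2.64% of all genes in RPRD1A_KD, 3.46% in RPRD1B_KD, 3.84% in RPRD2_KD, 2.51% in RPRD1B_RPRD2_KD and 4.04% in the mean of the 7.

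The 3 linker histone H1 genes tested, and the H3 gene HIST1H3E, had fold changes below 0 in every knockdown group. All 7 comparisons share the same 2 CTRL libraries, so these signs are not independent of each other. HIST1H1C was at 160 and 111 CPM in CTRL. It was at 156 and 104 in RPRD1A_KD, 130 and 108 in RPRD1B_KD, 124 and 87.8 in RPRD2_KD, 97.1 and 98.6 in RPRD1A_RPRD1A_KD, 112 and 134 in RPRD1A_RPRD2_KD, 112 and 78.1 in RPRD1B_RPRD2_KD, and 83.0 and 76.4 in the triple knockdown. Set against the CTRL library of the same number, HIST1H1C was lower in both libraries of 6 of the 7 groups, with differences of -77.0 and -34.9 CPM in the triple knockdown, -47.9 and -33.2 in RPRD1B_RPRD2_KD and -35.8 and -23.5 in RPRD2_KD. In RPRD1A_RPRD2_KD they were -48.0 and 23.2. Both libraries were below both CTRL libraries in RPRD1A_RPRD1A_KD and in the triple knockdown. In the triple knockdown the log2 fold change was -0.76 (SE 0.25, unadjusted p = 0.00723, adjusted p = 1 by edgeR), and -0.47 without CTRL replicate 1. With the replicate number as a block it was -0.74 with an adjusted p of 0.255. With the second RPRD1A_RPRD2_KD library left out as well, it was again -0.74. That library held the difference of 23.2 CPM, the only one above 0. No other library was left out together with the block.

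HIST1H1E was at 14.5 and 15.6 CPM in CTRL and between 5.03 and 14.8 CPM in the 14 knockdown libraries. Its 2 CTRL libraries overlapped with those of RPRD1A_RPRD2_KD (14.8 and 12.2) and with no other group. Log2 fold changes ran from -1.07 (SE 0.38) in RPRD2_KD to -0.19 (SE 0.35) in RPRD1A_RPRD2_KD, and in the mean of the 7 groups it was -0.70 (SE 0.27, unadjusted p = 0.0183, adjusted p = 1). HIST1H1D was at 5.02 and 12.9 CPM in CTRL, a range that held all but 3 of the knockdown libraries, and its log2 fold changes ran from -0.94 to -0.29.

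Of the H4 genes, HIST1H4C was at 1801 and 1571 CPM in CTRL, 1572 and 1455 in RPRD1A_KD, 1610 and 1449 in RPRD1B_KD, and 1424 and 1396 in RPRD2_KD. It was at 1329 and 1552 in RPRD1A_RPRD1A_KD, 1680 and 2131 in RPRD1A_RPRD2_KD, 1626 and 1653 in RPRD1B_RPRD2_KD, and 1287 and 1530 in the triple knockdown. The highest value belonged to the RPRD1A_RPRD2_KD library that stood apart in GC content. Log2 fold changes of HIST1H4C lay between -0.25 and 0.16, each with an SE of 0.15, and the highest, in RPRD1A_RPRD2_KD, was 0.12 after a correction for GC content and 0.0086 without that library. HIST1H4J, the other H4 gene tested, ran from 3.78 to 11.6 CPM over the 16 libraries, with log2 fold changes between -0.33 and 0.17.

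Some H2A and H2B genes had fold changes above 0, at low counts. HIST1H2AC was at 2.79 and 1.78 CPM in CTRL, 6.56 and 6.42 in RPRD1B_KD, 6.64 and 6.40 in RPRD1A_RPRD1A_KD, and 8.71 and 5.87 in the triple knockdown. It was at 8.07 and 2.91 in RPRD1B_RPRD2_KD, 5.88 and 2.76 in RPRD2_KD, 0.468 and 3.38 in RPRD1A_KD, and 1.58 and 2.71 in RPRD1A_RPRD2_KD. By group means, the 4 groups lowest in RPRD1B were the 4 highest in HIST1H2AC, an order noticed after the values were seen and not tested. Single libraries did not keep it: the 2.91 CPM in RPRD1B_RPRD2_KD lay below 5.88 in RPRD2_KD and 3.38 in RPRD1A_KD. Its log2 fold change was 1.67 (SE 0.66) in the triple knockdown, 1.53 (SE 0.67) in RPRD1A_RPRD1A_KD and 1.52 (SE 0.65) in RPRD1B_KD, each with an adjusted p of 1 by edgeR.

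HIST1H2BJ was at 6.69 and 4.45 CPM in CTRL and 14.03 and 9.70 in RPRD1B_RPRD2_KD, where its log2 fold change was 1.13 (SE 0.46, unadjusted p = 0.0249, adjusted p = 1). HIST1H2BD was at 1.11 and 4.01 CPM in CTRL and 4.68 and 8.44 in RPRD1A_KD, with a log2 fold change of 1.31 (SE 0.61, unadjusted p = 0.0483, adjusted p = 1). That value was 0.74 without CTRL replicate 1, 2.54 without CTRL replicate 2 and 0.80 without RPRD1A_KD replicate 2. Both had fold changes above 0 in all 7 groups, which share the same 2 control libraries. HIST3H2A was at 25.1 and 13.4 CPM in CTRL and between 12.2 and 25.2 CPM in the knockdown libraries, with log2 fold changes from -0.36 to 0.07. HIST1H2BN ran from 6.19 to 14.03 CPM, HIST2H2BE from 0.936 to 5.46 and HIST2H2AC from 1.06 to 5.58. HIST1H3E, the only H3 gene tested in this line, was at 5.58 and 3.56 CPM in CTRL and 1.26 and 2.76 in RPRD2_KD, with a log2 fold change of -1.12 (SE 0.56).

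As a set, the 13 tested members had a median log2 fold change between -0.21 and -0.03 over the 8 comparisons, where the median of all genes lay between -0.01 and 0.00. Between 4 and 6 of the 13 were above 0 in each. Summed over all 85 members, the level was 1924 ± 204 CPM in CTRL and lay between 1587 ± 151 in the triple knockdown and 2123 ± 340 in RPRD1A_RPRD2_KD (mean ± SD, n = 2). Without HIST1H4C it was 238 ± 41.3 CPM in CTRL and 178 ± 20.3 in the triple knockdown, the lowest of the 8 groups. Most of that difference lay in HIST1H1C, at 136 ± 34.5 CPM in CTRL and 79.7 ± 4.7 in the triple knockdown. These sums were not tested.

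**Figure D3:**
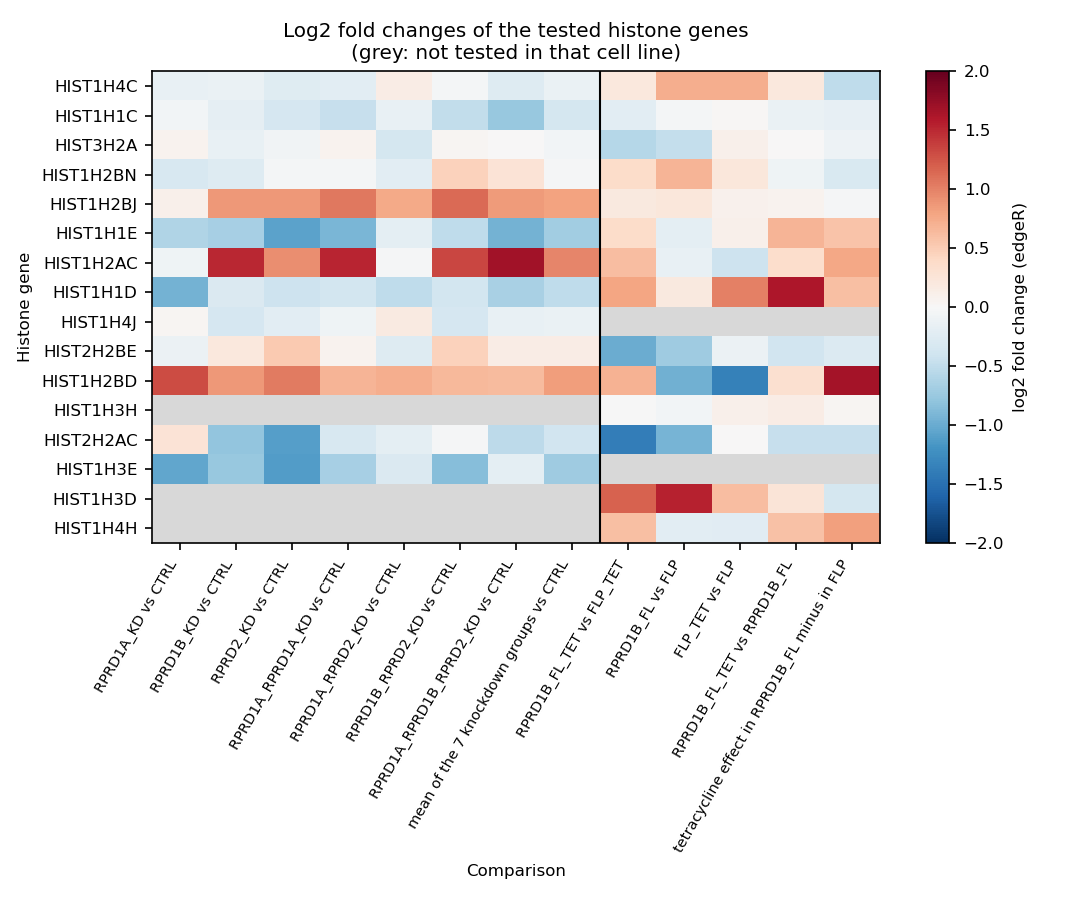
Log2 fold changes (colour scale, -2 to 2) of the 16 histone genes tested in either line, in 8 comparisons in HEK293T cells (left of the line) and 5 in Flp-In T-REx 293 cells (right). Grey marks genes that did not pass the filter in that line, and no cell had an adjusted p under 0.05. The H1 genes and HIST1H3E are blue throughout the HEK293T columns, while HIST1H2BJ and HIST1H2BD are red.

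In Flp-In T-REx 293 cells, 14 members passed the filter, and none was called by edgeR in any comparison. The share of all 11948 genes called was 1.11% for RPRD1B_FL_TET against FLP_TET, 1.18% for RPRD1B_FL against FLP and 1.02% for FLP_TET against FLP. It was 0% for RPRD1B_FL_TET against RPRD1B_FL and 0% for the difference between the 2 tetracycline effects. DESeq2 called 0 members in each of the 5. At an unadjusted p under 0.05 there were 4 members in RPRD1B_FL_TET against FLP_TET (10.3% of all genes), 4 in RPRD1B_FL against FLP (13.3%), 2 in FLP_TET against FLP (22.7%), 1 in RPRD1B_FL_TET against RPRD1B_FL (6.13%) and 1 in the difference of the effects (3.99%).

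HIST1H4C was at 386 and 453 CPM in FLP, 848 and 539 in FLP_TET, 914 and 467 in RPRD1B_FL, and 1158 and 467 in RPRD1B_FL_TET. In each group other than FLP, replicate 1 was far above replicate 2. Both FLP_TET and RPRD1B_FL lay above FLP in both libraries, for RPRD1B_FL replicate 2 by little (467 against 453 CPM in FLP replicate 2). By edgeR each log2 fold change was 0.72 (SE 0.29, unadjusted p = 0.0223), with adjusted p of 0.156 for FLP_TET and 0.281 for RPRD1B_FL. The FLP_TET value was 0.35 without FLP_TET replicate 1. That of RPRD1B_FL was 0.17 without RPRD1B_FL replicate 1, and without RPRD1B_FL replicate 2 it was 1.13 and called, at an adjusted p of 0.0478. Without a filter on low counts both were called, at adjusted p of 0.000228 and 0.000159, in fits that called 3.35% and 1.29% of all genes. So they were when either RPRD1B_FL_TET library was left out, at 0.0102 and 0.0113 for FLP_TET, where 10.4% and 10.6% of all genes were called, and at 0.0194 and 0.0209 for RPRD1B_FL, where 3.13% and 3.18% were. Among the libraries numbered 1 the other 3 groups were above FLP by at least 463 CPM, and among those numbered 2 by 14.6 to 86.6 CPM.

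Transcript GC content moved with these values. The 3 libraries of highest HIST1H4C had a Spearman correlation of 0.20 to 0.61 between their deviation and transcript GC content, and the 2 FLP libraries had -0.55 and -0.37, although FLP_TET replicate 2 had 0.46 at 539 CPM. The annotated HIST1H4C transcript has 49.7% GC, above 60.3% of genes. After a correction for GC content the log2 fold changes of HIST1H4C were 0.67 for FLP_TET (adjusted p = 0.185) and 0.68 for RPRD1B_FL (adjusted p = 0.217). The same 3 libraries were also the 3 highest in HIST1H1C, at 186, 195 and 182 CPM, against 90.7 to 159 in the other 5.

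HIST3H2A, an H2A gene of the HIST3 cluster, had lower values in the RPRD1B_FL cells than in the FLP cells and was not called. It was at 48.1 and 55.5 CPM in FLP and 56.8 and 54.7 in FLP_TET, against 39.9 and 34.8 in RPRD1B_FL and 41.3 and 34.4 in RPRD1B_FL_TET. All 4 libraries labelled RPRD1B_FL, treated or not, were below all 4 labelled FLP. The log2 fold change was -0.57 (SE 0.19, adjusted p = 0.21) with tetracycline and -0.47 (SE 0.19, adjusted p = 0.272) without. With the correction for GC content the second was -0.60 and passed, at an adjusted p of 0.0417, in a fit that called 2.7% of all genes.

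**Figure D4:**
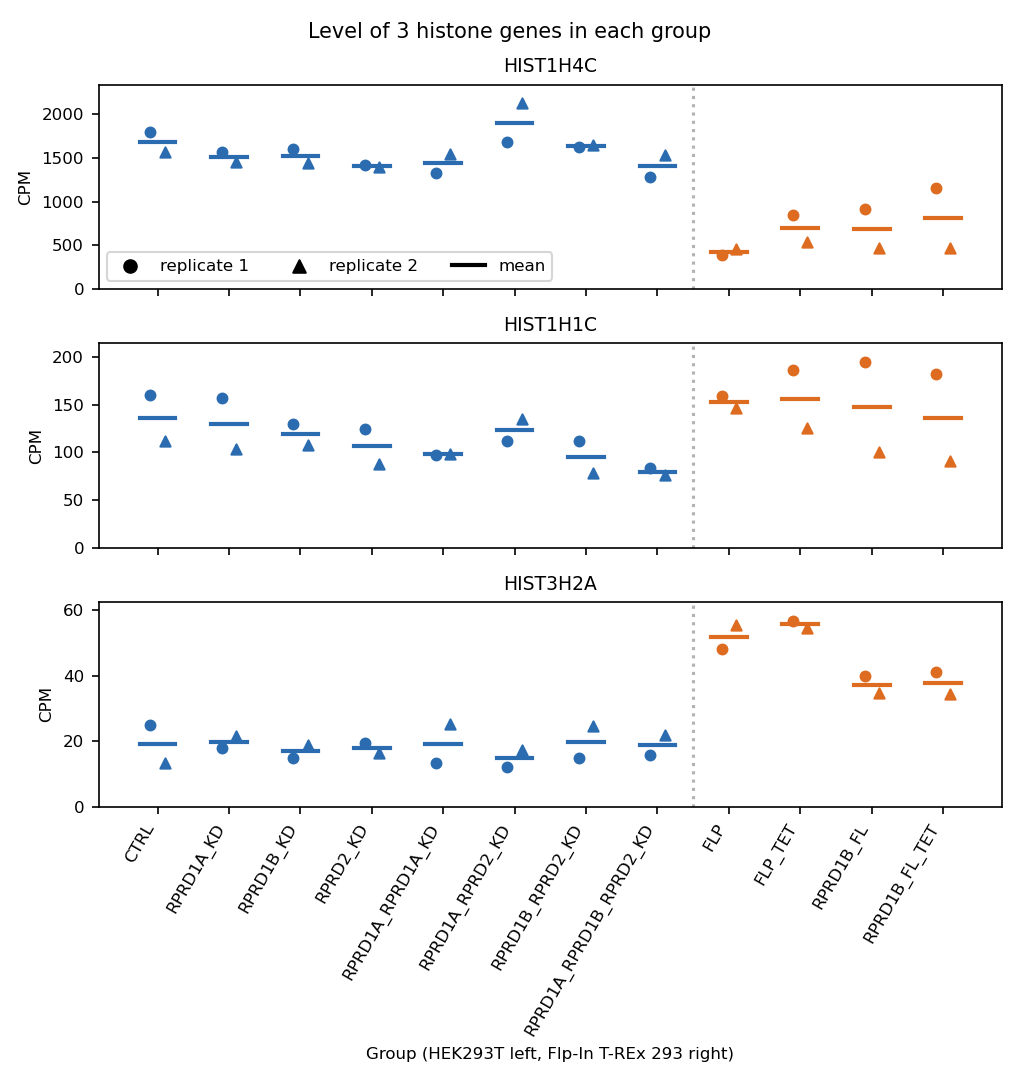
CPM (vertical axes, from 0) of HIST1H4C, HIST1H1C and HIST3H2A in each of the 12 groups, with circles for replicate 1, triangles for replicate 2 and bars for the mean. HEK293T groups are blue and Flp-In T-REx 293 groups orange. HIST1H4C replicates part widely in FLP_TET, RPRD1B_FL and RPRD1B_FL_TET, and HIST3H2A is lower in both RPRD1B_FL groups than in both FLP groups.

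Less abundant members gave the other low p-values. HIST1H2BN, an H2B gene, was at 9.16 and 14.4 CPM in FLP and 21.6 and 16.8 in RPRD1B_FL (log2 fold change 0.68, SE 0.27). HIST1H3D, an H3 gene, was at 2.29 and 1.15 CPM in FLP and 4.39 and 5.35 in RPRD1B_FL (1.54, SE 0.58), and at 1.54 and 3.65 in FLP_TET and 7.64 and 4.02 in RPRD1B_FL_TET (1.18, SE 0.51). In both comparisons the RPRD1B_FL libraries lay above. HIST2H2AC and HIST2H2BE lay the other way. With tetracycline, HIST2H2AC was at 4.02 and 4.64 CPM in FLP_TET and 1.91 and 1.34 in RPRD1B_FL_TET (-1.38, SE 0.56). HIST2H2BE was at 9.27 and 10.3 CPM in FLP_TET and 4.97 and 4.92 in RPRD1B_FL_TET (-0.99, SE 0.38). Without tetracycline, their fold changes in RPRD1B_FL against FLP were also below 0, at -0.92 (SE 0.51) and -0.72 (SE 0.35).

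For tetracycline itself, HIST1H2BD was at 8.78 and 5.47 CPM in FLP and 2.47 and 2.98 in FLP_TET (-1.35, SE 0.47, adjusted p = 0.107 by edgeR). In a fit of these 2 groups alone HIST1H2BD and HIST1H4C were called, at adjusted p of 0.0489 and 0.00789. That fit tested 12 members and called 1273 of all 11848 genes (10.7%). In RPRD1B_FL cells HIST1H2BD was at 2.56 and 4.58 CPM without and 6.12 and 2.68 with tetracycline, and the difference between the effects was 1.66 (SE 0.71, unadjusted p = 0.0279, adjusted p = 0.991), or 0.94 without RPRD1B_FL_TET replicate 1. HIST1H1D was at 2.56 and 1.15 CPM in RPRD1B_FL and 8.79 and 2.68 in RPRD1B_FL_TET (1.61, SE 0.61, unadjusted p = 0.0141, adjusted p = 0.788), and the value was 0.50 without RPRD1B_FL_TET replicate 1. HIST1H3H lay between 6.11 and 9.58 CPM in all 8 libraries. Summed over all members, the level was 709 ± 53.2 CPM in FLP, 992 ± 268 in FLP_TET, 965 ± 392 in RPRD1B_FL and 1093 ± 578 in RPRD1B_FL_TET.

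The 2 lines were then compared with each other. This comparison, a single fit of all 24 libraries, was added after the values were seen, and the line cannot be told apart from siRNA or tetracycline treatment and from how and when the libraries were made. Of 16 members tested, 11 were called (68.8%), and of all 12803 genes tested 68.8% were called, so the count equals the background. In Flp-In 7 members were higher (33.6% of all genes were) and 4 lower (35.1%).

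The 2 H4 genes tested were lower in Flp-In: HIST1H4C at 386 to 1158 CPM against 1287 to 2131 in HEK293T (log2 fold change -1.29, SE 0.13, adjusted p = 2.01e-09) and HIST1H4J at 0.927 to 3.82 against 3.78 to 11.6 (-1.94, SE 0.27, adjusted p = 6.06e-07). HIST1H4H, tested within Flp-In but too low for the fit of both lines, had the opposite order. Its mean was 0.541 CPM (22 counts) in HEK293T and 2.61 (59 counts) in Flp-In. Linker histone genes split. HIST1H1C was higher in Flp-In (0.44, SE 0.13, and 0.27 after the correction for GC content), while HIST1H1D (-1.26, SE 0.27) and HIST1H1E (-0.71, SE 0.23, and -1.14 without RPRD1B_FL_TET replicate 1) were lower. The ratio of HIST1H4C to HIST1H1C within a library ran from 10.1 to 21.2 in HEK293T and from 2.42 to 6.37 in Flp-In, without overlap.

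The H2A genes HIST3H2A (1.30, SE 0.12, adjusted p = 3.99e-10) and HIST1H2AC (0.92, SE 0.21), the H2B genes HIST2H2BE (1.33, SE 0.21) and HIST1H2BN (0.85, SE 0.14), and the H3 genes HIST1H3H (2.08, SE 0.20, adjusted p = 8.21e-10) and HIST1H3D (1.09, SE 0.33) were higher in Flp-In. HIST1H3H was at 1.01 to 3.94 CPM in HEK293T and 6.11 to 9.58 in Flp-In. Among the 11 called members, HIST1H4C, HIST3H2A and HIST1H3H did not overlap between the lines in any library, and the other 8 did. HIST1H2BJ, HIST1H2BD, HIST2H2AC, HIST1H3E and HIST2H2BC were not called, with log2 fold changes between -0.15 and 0.26.

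**Figure D5:**
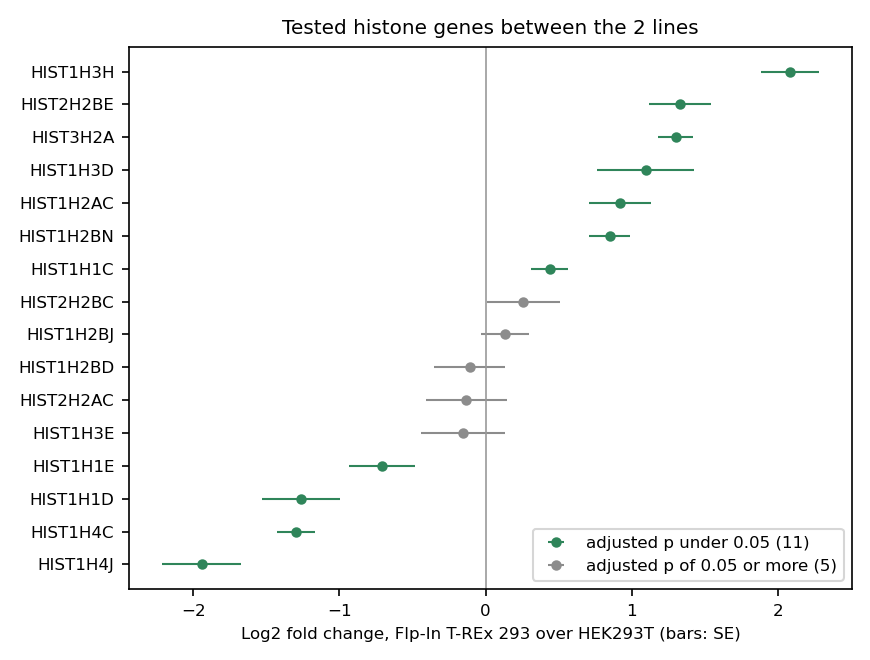
Log2 fold change of Flp-In T-REx 293 over HEK293T (horizontal axis, bars are 1 SE) for the 16 histone genes tested in all 24 libraries. Green points passed an adjusted p of 0.05 by edgeR (11 genes) and grey points did not (5). HIST1H3H is highest at 2.08 and HIST1H4J lowest at -1.94.

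Other genes of the histone pathway gave the frame. Replication-independent histone genes, whose mRNAs carry poly(A) tails, ranged widely: 8 of the 12 listed had a mean above the 27.4 CPM of HIST3H2A, and 1 had a mean above that of HIST1H4C. H2AFZ, a variant H2A, had a mean of 1964 CPM and H3F3B, a variant H3, 1242 CPM. The linker variant H1FX was at 916 CPM and H2AFV at 549 CPM, while H3F3A was at 7.85 CPM and H3F3C at 0.149 CPM. Reads without a unique position belong to no gene, and how many came from these genes was not tested. Of the 12, 11 were tested. The list of 22 genes of histone mRNA 3′-end processing and turnover, which includes SLBP (mean 62.4 CPM) and the U7 proteins LSM10 and LSM11, and the list of 24 S phase genes were tested in full.

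In HEK293T no gene of the 3 lists was called by edgeR in any comparison, where 0.00845% or 0.0169% of all genes were. At an unadjusted p under 0.05, 0 to 3 replication-independent histone genes, 0 to 2 processing genes and 0 to 2 S phase genes passed per comparison. Of all genes 2.51% to 7.07% did. Median log2 fold changes lay between -0.24 and -0.01, between -0.03 and 0.07, and between -0.14 and -0.01, in that order. In Flp-In cells, H1FX (0.78, SE 0.17) and MCM5 (0.69, SE 0.16), a subunit of the replicative helicase, rose with tetracycline in FLP, while FEN1 (-0.73, SE 0.17), the flap endonuclease, and the helicase subunit MCM3 (-0.66, SE 0.15) fell, each at an adjusted p of 0.0468. In that comparison 1.02% of all genes were called. CHAF1B, a subunit of the chromatin assembly factor that deposits H3 and H4, was lower in RPRD1B_FL_TET than in FLP_TET (-0.79, SE 0.16, adjusted p = 0.012). There 1.11% of all genes were called. No processing gene was called within either line by edgeR. The most at an unadjusted p under 0.05 was 7 of 22, for FLP_TET against FLP, where 22.7% of all genes passed.

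Between the lines, 15 of 24 S phase genes were higher in Flp-In and 3 lower, against 33.6% and 35.1% of all genes, with a median log2 difference of 0.30. Of the processing genes 6 were higher and 9 lower, with MIF4GD, an SLBP-interacting translation factor, highest (1.39, SE 0.11) and CSTF2, a cleavage stimulation factor subunit, lowest (-1.18, SE 0.14). Of the replication-independent histone genes 5 were higher and 3 lower. Of the 6 markers of the 293 line, NEFL was at 1.01 to 6.56 CPM in HEK293T and 83.7 to 155 in Flp-In, and VIM at 76.2 to 155 against 326 to 414. NEFM lay the other way, at 4.60 to 20.5 CPM in HEK293T and 0.765 to 3.82 in Flp-In. The lines overlapped for INA (6.66 to 15.6 against 14.9 to 24.4), PAX2 (0.558 to 5.03 against 2.68 to 10.2) and EYA1 (5.58 to 14.6 against 5.35 to 12.4).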

How the data were processed

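Total RNA was taken with TRIzol and sequenced from poly(A) 3′ ends, per the labels' protocols. The authors deposited raw counts (whole numbers) for 58138 gene names in a separate table for each sample, followed by 5 summary rows. STAR, HTSeq, FastQC, DESeq2 and GRCh38 are named in the submitters' processing notes, without roles or versions. The annotation, the strand setting and any filter are not given in the sources used here, so overlapping or antisense genes could not be told apart. The summary rows were left out of library sizes and tests: reads in no gene made up 15.3% to 36.7% of all reads, ambiguous reads 1.3% to 1.83% and reads without a unique position 9.56% to 14.6%. Reads in no gene differed by line, at 939234 to 1980430 in the HEK293T libraries and 641075 to 918642 in the Flp-In libraries. Reads past an annotated gene end belong to no gene name, and how many lie beyond histone genes was not tested.

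Counts were tested in R 4.3.3 with edgeR 4.0.16 (glmQLFit, glmQLFTest, limma 3.58.1), 1 coefficient per group, in 1 fit per line and, for the comparison of the lines, 1 fit of all 24 samples. Genes passed filterByExpr (minimum count 10, total 15), libraries were scaled by TMM, and a gene was called at a Benjamini-Hochberg adjusted p under 0.05 over all genes tested. CPM are on 1 TMM scale over 24 libraries. The test was also run on counts simulated with a fixed spread, in which only genes of higher counts were changed. That run says nothing about members at low counts. DESeq2 1.42.0, other scaling, other filters, a GC correction, the replicate block, fits of only the groups compared and leaving out each library were alternatives. The block together with leaving out a library was run only for the second RPRD1A_RPRD2_KD library. Sequences and GC content come from GENCODE release 29 transcripts, and all 85 names matched. Within groups, counts differed by 2.01 to 10.7 times sampling noise (chi-square per degree of freedom), so no samples were merged.

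Members and lists were chosen with earlier results of these data known. Named with values are the 12 members of highest mean CPM, in each comparison the members called or of lowest p in each direction, members near the detection floor of 3 counts, the targets, and from each list up to 4 genes of highest mean or called. Other names (HIST2H2AC, HIST1H3D, HIST1H3E, HIST2H2BC, HIST1H2BG, H3F3A, H3F3C, SLBP, LSM10, LSM11 and the line markers) were chosen after their values were seen.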

Additional observations from a re-analysis of the deposited data

How the results depend on the processing

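No member was called in RPRD1A_KD, RPRD1B_KD, RPRD2_KD, RPRD1A_RPRD1A_KD, RPRD1A_RPRD2_KD, RPRD1B_RPRD2_KD, RPRD1B_FL_TET against FLP_TET, RPRD1B_FL_TET against RPRD1B_FL or the difference of the tetracycline effects under any alternative run. With the replicate block and without the second RPRD1A_RPRD2_KD library, HIST1H1C was called in the triple knockdown and in the mean of the 7 groups. That fit left 1 sample in RPRD1A_RPRD2_KD. The library left out held HIST1H1C above the same-numbered CTRL library, and no other library was left out together with the block. In RPRD1B_FL against FLP, 1 member was called with no filter on low counts (HIST1H4C), 1 with the GC correction and 1 with GC correction and replicate block (HIST3H2A in both), and 0 to 1 with a library left out. Those fits called 1.29%, 2.7% and 2.9% of all genes, and 0.608% to 3.18% in the left-out fits that called a member, against 1.18% in the main result. In FLP_TET against FLP it was 1 with no filter, 2 in a fit of only the groups compared, and 0 to 1 with a library left out. There 3.35%, 10.7% and, in the left-out fits that called a member, 10.4% to 10.6% of all genes were called, against 1.02%. HIST1H4C was the member called when RPRD1B_FL replicate 2, or either RPRD1B_FL_TET library, was left out. Between the lines the main 11 became 3 at a mean count of 50 or more, where only 3 members were tested, and 12 to 14 with a library left out, where the filter's smallest group is 1 sample and 18 to 19 members were tested. Members seen in HEK293T were 10 at a floor of 3 counts, 17 at 1 count and 6 at 10, and in Flp-In 16, 19 and 8. A reversed sign occurred only with a library left out, for fold changes that were not called: HIST1H1D in RPRD1A_RPRD2_KD ran from -0.97 to 0.35, HIST1H4C in RPRD1B_RPRD2_KD from -0.13 to 0.071, in RPRD1B_FL_TET against FLP_TET from -0.57 to 0.71, against RPRD1B_FL from -0.57 to 0.76, and in the difference of effects from -1.29 to 0.041. The cause of these changes was not tested, and at 3 counts per 0.85 to 1.65 CPM most members were too shallow for a fold change to be measured.

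The labels do not say what a replicate number marks. Over 28 pairs of HEK293T groups, same-numbered libraries deviated together with a mean correlation of 0.34, over 0.1 in 26 pairs, and both other pairs hold RPRD1A_RPRD2_KD. Over 6 pairs of Flp-In groups the mean was -0.02, over 0.1 in 1 pair. With the replicate block alone the count of members called was 0 in all 13 comparisons within a line and 11 between the lines. A fit of only the groups compared was not possible for the mean of the 7 groups, the difference of effects and the lines, which use all groups already.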
